A study of Rattus norvegicus with 10 samples.

Results

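Left cortex taken 3 hours after occlusion of the middle cerebral artery (MCAO) in rats treated with neuregulin-1 (NRG1) was compared with left cortex of sham-operated rats. The comparison used the 3 arrays titled as MCAO with NRG treatment and the 4 titled as sham control, 7 of the 10 arrays in the series, and the 18511 probe sets of the array that carry a single gene symbol. All animals were male adult Sprague-Dawley rats, and each array held the RNA of 1 animal. MCAO+NRG1 rats received the EGF-like domain of the beta form of NRG1, in saline with bovine serum albumin, as a bolus into the internal carotid artery just before a filament was passed up that artery to block the middle cerebral artery for good. Sham rats had the same operation without the filament. The methods describe injections only for the occluded groups and do not say what sham rats were given, if anything. A further 3 arrays came from MCAO rats given the vehicle, and these entered the model and are shown beside the others where a gene calls for it. No group is described as given NRG1 without occlusion, so the effects of occlusion and of NRG1 cannot be told apart in a comparison with sham. The question put to the 7 arrays was which genes stood higher or lower than in sham cortex when the occluded brain had been given NRG1.

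NRG1 is a secreted growth factor that binds the receptor tyrosine kinases ErbB3 and ErbB4, which pair with ErbB2 and signal through the ERK and PI3K kinase pathways in neurons, glia and endothelial cells. When a cerebral artery is blocked, neurons in its territory lose oxygen and glucose, depolarise and take up calcium, and within minutes to hours they transcribe immediate early genes, which need no new protein to be switched on. Vessel cells, microglia and astrocytes of the same tissue answer with chemokines, prostaglandin enzymes and stress genes.

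The transcription factors that switch on immediate early genes bind short DNA motifs close to the start of the gene, and 5 promoters of genes that were higher in MCAO+NRG1 are shown because they carry such motifs within 250 bases before the RefSeq start (GRCr8). Capitals mark the motif letters on either strand, so that a half-site on the other strand reads CGTCA. The motifs searched on both strands were the cyclic AMP response element (CRE, TGACGTCA), its half-site TGACG, the AP-1 site (TGACTCA or TGAGTCA), the serum response CArG box, ETS sites (CCGGAAGT or ACCGGAA), the NF-kB site and the TATA box (TATAAA). Egr2 lies on the minus strand at chr20:21054442-21054691, and its window held a CArG box 83 to 74 and a half-site 66 to 62 bases before the start. Nr4a1 (chr7:134259888-134260137, plus strand) held 4 half-sites and an NF-kB site. Junb (chr19:40080876-40081125, plus strand) held a half-site 155 to 151 and a TATA box 49 to 44 bases before the start, Dusp1 (chr10:17184603-17184852, plus strand) a full CRE 124 to 117 and a half-site 172 to 168 bases before it, and Ier2 (chr19:40399123-40399372, plus strand) a full CRE 66 to 59 bases before it.
Egr2: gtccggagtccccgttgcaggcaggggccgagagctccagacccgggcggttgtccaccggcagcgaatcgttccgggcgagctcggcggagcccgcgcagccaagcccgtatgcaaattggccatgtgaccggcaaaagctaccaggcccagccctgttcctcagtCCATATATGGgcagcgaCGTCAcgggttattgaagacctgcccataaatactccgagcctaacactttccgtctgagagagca
Nr4a1: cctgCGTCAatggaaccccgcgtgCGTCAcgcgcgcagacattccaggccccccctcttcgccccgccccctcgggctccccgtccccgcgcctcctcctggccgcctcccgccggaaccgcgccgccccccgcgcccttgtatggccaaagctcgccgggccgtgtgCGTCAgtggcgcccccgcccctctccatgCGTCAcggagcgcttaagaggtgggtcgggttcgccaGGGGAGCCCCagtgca
Junb: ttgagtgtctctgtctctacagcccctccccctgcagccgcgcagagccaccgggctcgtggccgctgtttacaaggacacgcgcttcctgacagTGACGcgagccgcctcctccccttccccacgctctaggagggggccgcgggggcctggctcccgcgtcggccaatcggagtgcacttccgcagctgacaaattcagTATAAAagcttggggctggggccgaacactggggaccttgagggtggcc
Dusp1: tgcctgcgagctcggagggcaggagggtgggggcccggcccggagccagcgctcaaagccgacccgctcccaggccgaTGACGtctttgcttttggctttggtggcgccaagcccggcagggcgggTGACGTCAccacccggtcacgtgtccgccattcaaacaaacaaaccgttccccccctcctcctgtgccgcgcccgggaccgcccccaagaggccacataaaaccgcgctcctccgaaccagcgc
Ier2: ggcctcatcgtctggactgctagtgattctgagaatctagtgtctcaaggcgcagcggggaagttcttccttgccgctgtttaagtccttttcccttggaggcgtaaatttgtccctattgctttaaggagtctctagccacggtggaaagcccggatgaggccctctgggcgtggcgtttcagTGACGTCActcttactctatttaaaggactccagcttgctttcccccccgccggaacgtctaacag
Of all 27457 promoters of this length in the table, 1.70% held a full CRE, 19.0% a half-site (full CREs included), 3.98% an AP-1 site, 1.50% a CArG box, 5.62% an ETS site, 3.52% an NF-kB site and 13.1% a TATA box. A promoter was listed for 15 of the 21 risen genes looked up, and the windows of Npas4, Ptgs2 and Bdnf held none of these letters. A count of motifs over all risen or fallen genes was void, since a promoter was listed for 78.6% of the risen and 77.3% of the fallen protein-coding genes, too few for such a count. A match of letters is a description and not a binding site.

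MicroRNA genes stood among the largest falls, and the mature sequences of those the results turn on are shown with the seed, bases 2 to 8, in capitals. The seed is the stretch that pairs with target messages. RefSeq (GRCr8) listed mature sequences for all 19 microRNA genes called between MCAO+NRG1 and sham, 34 sequences with 34 different seeds, so that no seed was shared between these genes. miR-329, miR-543, miR-382 and miR-134 come from the imprinted Dlk1-Dio3 region of chromosome 6, and miR-27b and miR-23b lie together on chromosome 17.
miR-329-5p: aGAGGUUUucugggucucuguuuc
miR-329-3p: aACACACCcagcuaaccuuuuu
miR-543-5p: aAGUUGCCcgcguguuuuucg
miR-543-3p: aAACAUUCgcggugcacuucu
miR-382-5p: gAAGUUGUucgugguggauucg
miR-382-3p: aAUCAUUCacggacaacacuu
miR-134-5p: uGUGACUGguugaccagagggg
miR-27b-3p: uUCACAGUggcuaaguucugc
miR-23b-3p: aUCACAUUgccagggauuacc
The array probes read the RNA of each microRNA gene, not the mature strand. Elsewhere among rat microRNAs, the seed of miR-329-3p is shared by miR-362-3p, that of miR-27b-3p by miR-27a-3p and that of miR-23b-3p by miR-23a-3p.

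Markers of neurons and glia were well above background in both groups. Snap25, a protein of the synaptic release machinery found in all neurons, was at 12.90 to 13.12 log2 in MCAO+NRG1 and 12.78 to 13.07 in sham, and Slc17a7, the vesicular glutamate transporter of cortical excitatory neurons, at 11.33 to 11.46 and 11.48 to 11.82. Gfap of astrocytes (9.51 to 9.85 in MCAO+NRG1, 9.84 to 10.11 in sham), Mbp of myelin (11.17 to 11.45 and 11.25 to 11.67) and Cx3cr1 of microglia (8.28 to 8.44 and 8.26 to 8.53) were likewise well above background. Background was set at 4.68 log2, the level under which 95% of 1375 olfactory and vomeronasal receptor probe sets lay, and 12608 of the tested probe sets (68.1%) were above it. The deposited log2 values differed in overall level: the array median was 5.79 to 5.81 in MCAO+NRG1 and 6.05 to 6.11 in sham. In MCAO it was 5.80 and 5.82 in arrays 1 and 2 but 6.12 in array 3, so the level did not follow occlusion in every array. The cause of the difference in level was not tested. Subtracting each array's median raised every difference between MCAO+NRG1 and sham by 0.27 log2. A gene is therefore said here to have risen or fallen only where limma called it in that direction on both the deposited and the median-centred scale, at an adjusted p under 0.05, and all values below are on the deposited scale unless named otherwise. In whole tissue, fewer cells of a type and less RNA per cell cannot be told apart.

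On both scales 276 probe sets were higher and 288 lower in MCAO+NRG1 than in sham, 1.49% and 1.56% of those tested. The median difference was 0.83 log2 among the risen and −0.97 among the fallen probe sets, and 87 rises and 128 falls were of at least 1 log2. Changes of at least 2 log2 were 16 rises and 3 falls. Of the fallen, 118 had a mean below background in MCAO+NRG1, and of the risen 32 had one below background in sham, so the sizes of those changes are not exact. For 40 of the fallen the sham mean was below background too, and for 9 of the risen the MCAO+NRG1 mean. In those even the higher group did not clear background. On the deposited scale alone 279 were higher (1.51%) and 2920 lower (15.8%). On the median-centred scale 707 were higher (3.82%) and 288 lower (1.56%), so that the split depended on the scale. At an unadjusted limma p under 0.05 on the deposited scale, 719 of the 18511 were higher and 5946 lower. The unadjusted counts of list members below are to be read beside these. The numbers called on both scales also depended on single arrays. They were 105 higher and 61 lower without MCAO+NRG1 array 1, 225 and 189 without array 2, and 101 and 66 without array 3. Without sham array 1 they were 779 and 1168, among them 273 of the 276 and all 288, and without sham arrays 2, 3 and 4 they were 95 and 47, 135 and 74, and 105 and 61. Among the MCAO arrays, which only add to the estimate of spread, leaving out array 3, whose median was near the sham level, gave 353 and 452. Sham array 1 was the sham array nearest to MCAO+NRG1 for 175 of the risen and 189 of the fallen probe sets. Of 149 named genes called on both scales, 58 kept that call whichever of the 10 arrays was left out, and 84 lost it without MCAO+NRG1 array 1, 79 without sham array 2 and none without sham array 1. For a single gene, a call lost or kept below is the call on both scales, and the adjusted p beside it is the highest on either scale. In the 7 arrays, groups that did not overlap on both scales were found for 402 probe sets higher (2.17%) and 1706 lower (9.22%) in MCAO+NRG1.

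**Figure D1:**
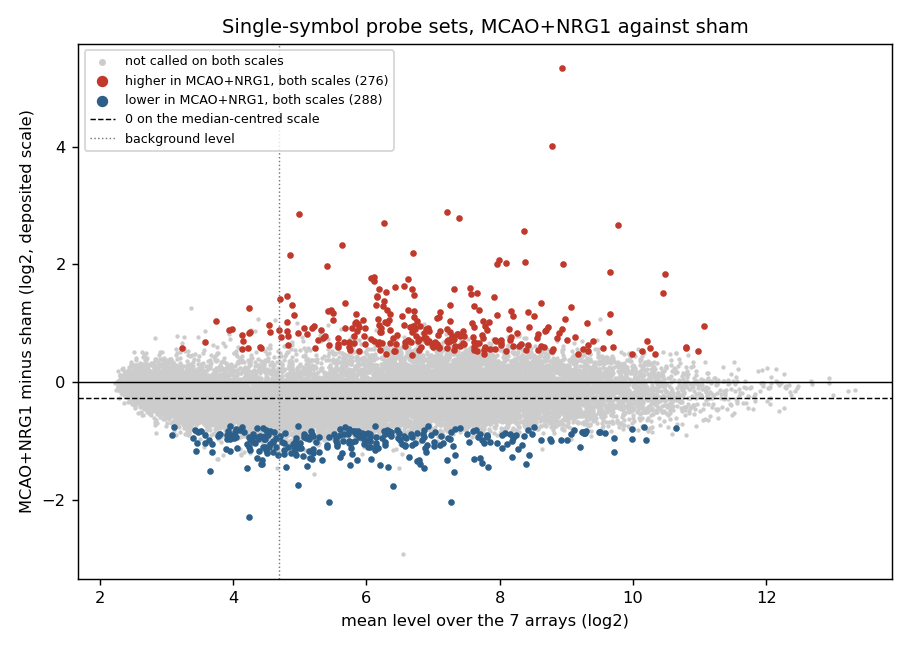
Difference between MCAO+NRG1 and sham (log2, deposited scale) against the mean level over the 7 arrays (log2) for the 18511 single-symbol probe sets, with those called on both scales in colour. The solid line is no difference, the dashed line is no difference on the median-centred scale, 0.27 lower, and the dotted line the background level of 4.68 log2; the 276 risen probe sets reach far higher than the 288 fallen ones reach down.

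The largest rise was that of Npas4, a transcription factor gene that neurons switch on when calcium enters the cell. Its arrays read 12.30, 12.43 and 11.24 log2 in MCAO+NRG1 (arrays 1 to 3), against 6.20, 6.65, 6.40 and 7.36 in sham (arrays 1 to 4). The groups lay far apart, at a difference of 5.34 ± 0.38 log2 (estimate ± SE), a fold of 40.4 (adjusted p = 3.23e-06). Fos, a subunit of the AP-1 transcription factor and the classic marker of recent neuronal activity, read 11.29, 11.44 and 10.52 in MCAO+NRG1 against 6.46, 6.99, 7.92 and 6.89 in sham. Its lowest MCAO+NRG1 array was above its highest sham array, sham array 3, and the difference was 4.02 ± 0.30 log2 (a fold of 16.2, adjusted p = 3.23e-06).

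Of 10 measured AP-1 subunit genes 6 rose and none fell, and the median difference over the list was 1.08 log2, against −0.24 over all probe sets tested. Besides Fos these were Fosb, Junb, Jun, Atf3 and Fosl1. Fosb read 9.81, 10.31 and 9.40 in MCAO+NRG1 against 6.39, 6.89, 8.92 and 6.88 in sham, where array 3 stood close to the MCAO+NRG1 arrays (2.57 ± 0.42 log2, adjusted p = 0.00297). Junb read 9.87, 10.05 and 8.73 in MCAO+NRG1 against 7.33, 7.39, 7.92 and 7.38 in sham, with no overlap (2.04 ± 0.31, adjusted p = 0.00198). Jun was measured by a pair of probe sets, which stood 1.12 and 0.93 log2 above sham and were both called. Atf3, a factor shared by AP-1 and the stress response, read 6.86, 7.66 and 6.72 against 4.58, 5.54, 5.85 and 5.26 (1.77 ± 0.32, adjusted p = 0.00466). Fosl1 rose least (1.05 ± 0.25, adjusted p = 0.0144), and its call was lost without MCAO+NRG1 array 1 or 2 or sham array 2 (adjusted p up to 0.0887). With any single array left out, 5 or 6 of the 10 remained called.

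The zinc finger and orphan receptor factors of the early response moved with them, 6 of 7 measured Egr and Nr4a genes being higher (median 1.83 log2). Egr2 read 9.17, 9.24 and 8.52 in MCAO+NRG1 against 5.89, 5.93, 7.08 and 5.85 in sham. Only sham array 3 left the narrow sham range, still below every MCAO+NRG1 array, and the difference was 2.79 ± 0.35 log2 (adjusted p = 0.000521). Nr4a1, whose promoter holds 4 half-sites, read 11.62, 12.07 and 10.89 against 9.62, 9.60, 10.26 and 9.29 in sham (1.83 ± 0.27, adjusted p = 0.00175), and Nr4a3 9.06, 9.44 and 9.24 against 7.06, 7.13, 7.65 and 7.05 (2.02 ± 0.23, adjusted p = 0.000257). Both genes separated the groups without overlap. Egr4 (2.08 ± 0.33), Nr4a2 (1.16 ± 0.20) and Egr1 (0.95 ± 0.23) rose too. Egr1 was already high in sham, at 10.26 to 11.23, which overlapped the lowest MCAO+NRG1 array at 11.22, and its call was lost without MCAO+NRG1 array 1 or 2 or sham array 2 or 4 (adjusted p up to 0.0783). In the Kruppel-like factors, another early family, 1 of 13 was called on both scales, Klf6 at 0.72 ± 0.23, and this call fell away in 6 of the 10 leave-one-out fits (adjusted p up to 0.134).

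**Figure D2:**
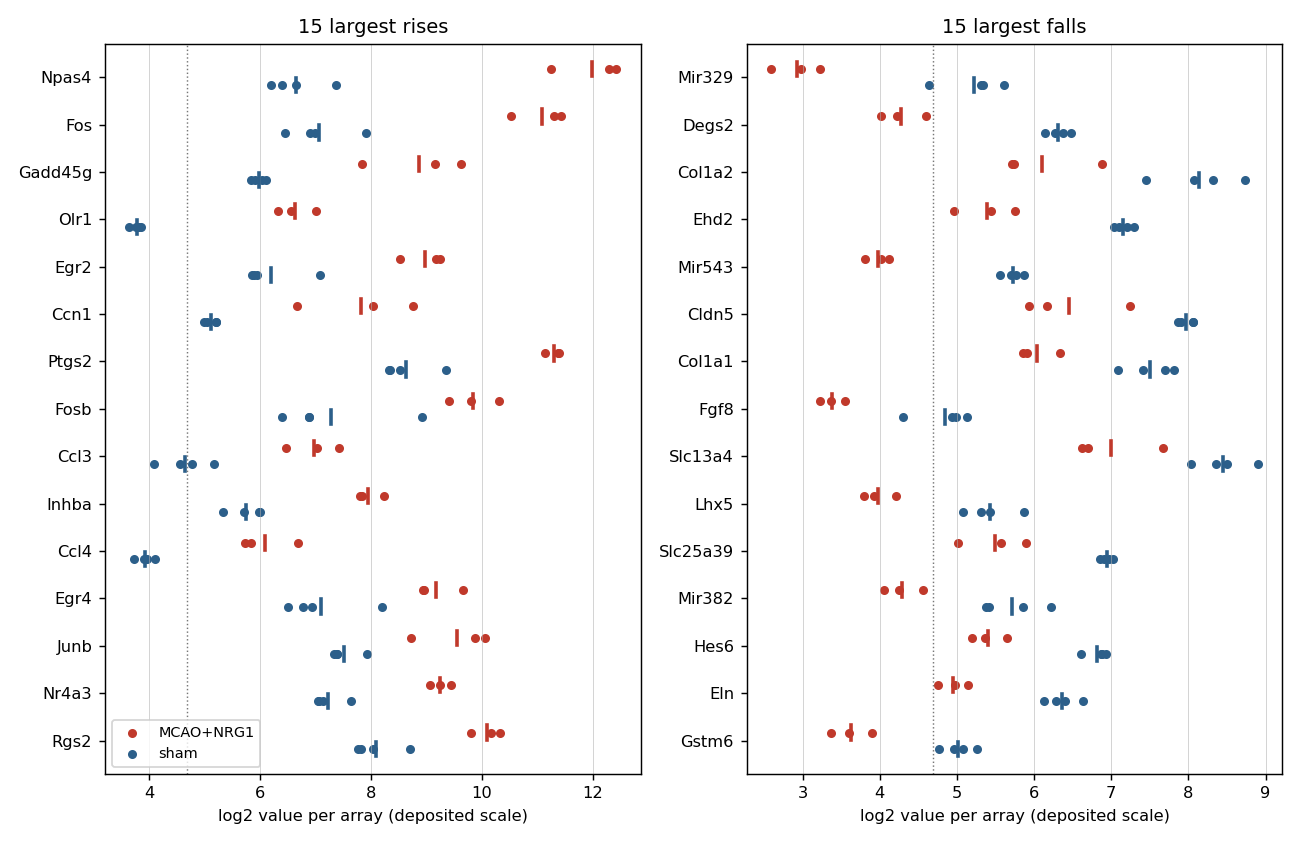
Value of each array (log2, deposited scale) for the 15 largest rises (left) and the 15 largest falls (right) with no overlap between groups, MCAO+NRG1 drawn above sham for each gene; the short bars are group means and the dotted line the background level. Npas4 and Fos stand furthest from sham among the rises, and Mir329, Degs2 and Col1a2 among the falls.

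Other early regulators gave 17 rises and no fall among 30 measured genes (median 0.66 log2; 12 to 19 rises with 1 array left out). Rgs2, which shortens signalling through G proteins, read 10.16, 10.32 and 9.81 in MCAO+NRG1 against 8.04, 7.77, 8.70 and 7.82 in sham (2.01 ± 0.23, adjusted p = 0.000263). Ier2, whose promoter carries a full CRE, read 7.04, 7.96 and 6.42 against 5.11, 5.53, 5.56 and 5.23 (1.79 ± 0.29, adjusted p = 0.00257). Neither gene overlapped between groups. Apold1, an early gene of endothelial cells, read 7.23, 8.14 and 7.53 against 6.17, 5.92, 5.76 and 5.63 (1.76 ± 0.23, adjusted p = 0.000743), and the small GTPase gene Rem2, which lowers calcium channel currents, 6.62, 7.53 and 7.14 against 5.36, 5.28, 5.62 and 5.25 (1.72 ± 0.20, adjusted p = 0.000277). Both stood apart in all 7 arrays. Gem, a relative of Rem2 (1.52 ± 0.27), Cited2, a coregulator that competes with hypoxia factors (1.28 ± 0.22), Zfp36, which marks inflammatory messages for decay (1.20 ± 0.22), Btg1, an inhibitor of cell division (1.19 ± 0.20), and the CREB-linked kinase gene Sik1 (1.04 ± 0.21) rose as well. Sik1 lost its call without MCAO+NRG1 array 1 (adjusted p = 0.05104).

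Genes through which neuronal activity reaches the synapse rose in 7 of 15 measured cases, and none fell on both scales (median 0.74 log2). Arc, which removes AMPA receptors from synapses, read 10.74, 11.21 and 10.21 in MCAO+NRG1 against 8.48, 8.67, 9.52 and 8.76 in sham (1.87 ± 0.28, adjusted p = 0.00196). Bdnf, the neurotrophin gene, read 7.59, 7.50 and 7.40 against 5.53, 6.01, 5.96 and 5.91 (1.64 ± 0.21, adjusted p = 0.00065). Inhba, the subunit of activin A, read 8.23, 7.83 and 7.79 against 6.0005, 5.98, 5.70 and 5.33 (2.20 ± 0.31, adjusted p = 0.00115). None of these 3 genes overlapped between the groups. The secretory granule gene Scg2 (0.94 ± 0.18) and the vesicle protein gene Syt4 (0.84 ± 0.16) rose by less, and so did Nptx2, which clusters AMPA receptors (1.01 ± 0.25). The call of Nptx2 was lost without any 1 of the MCAO+NRG1 arrays or sham array 2 or 4 (adjusted p up to 0.091), and that of Baz1a (0.88 ± 0.24) without MCAO+NRG1 array 1 or 3 or any 1 of sham arrays 2 to 4 (up to 0.147). The neuropeptide gene Nts read 6.83, 8.05 and 7.20 in MCAO+NRG1 against 6.67, 5.46, 5.77 and 5.05 in sham, where array 1 came close (1.62 ± 0.34, adjusted p = 0.00912). Its call was lost without MCAO+NRG1 array 3 or sham array 2 or 4.

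NRG1 signals through ERK, and cells answer ERK activity by making phosphatases that end it. Rises of such genes over sham cannot be assigned to NRG1 or to occlusion here. The clearest in the list was that of Dusp6, the cytoplasmic ERK phosphatase gene. Dusp6 read 9.05, 9.43 and 8.83 in MCAO+NRG1 against 7.13, 6.94, 7.02 and 7.29 in sham. Its groups were tight and far apart, and the difference of 2.01 ± 0.17 log2 (adjusted p = 2.34e-05) was called whichever array was left out. Dusp1, the nuclear phosphatase of several MAP kinases, read 11.88, 11.40 and 10.67 against 10.18, 9.96, 9.75 and 9.29 (1.52 ± 0.29, adjusted p = 0.00623), and Dusp4 rose by 0.95 ± 0.20 (adjusted p = 0.01005). Over the 15 measured ERK feedback genes these 3 rose and none fell, with a median of 0.22 log2. The count was 1 without MCAO+NRG1 array 1, where Dusp1 and Dusp4 were lost, 2 without sham array 2 or 4, where Dusp4 was lost, and 5 without MCAO array 3. Dusp5 was called on the deposited scale alone (0.99 ± 0.31, adjusted p = 0.0406, and 0.0536 after median centring).

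The messages of the ligand and its receptors were not called. The gene Nrg1 read 5.89, 5.89 and 6.06 in MCAO+NRG1 against 5.92, 5.95, 5.91 and 5.79 in sham, overlapping groups with a difference of 0.05 ± 0.14 log2. Erbb4 read 8.48, 8.72 and 9.06 against 8.65, 8.50, 8.28 and 8.44 (0.29 ± 0.17, adjusted p = 0.222, and 0.0602 after median centring), Erbb3 differed by −0.15 ± 0.15, and Erbb2, close to background, by −0.36 ± 0.23. Of all 15 measured neuregulin and ErbB genes none was called on either scale (5 at an unadjusted p under 0.05 on the deposited scale), and their median difference was −0.21 log2, near the −0.24 of all probe sets. Among ETS family genes, many of which encode ERK targets, 1 of 26 was called on both scales, Gabpa (0.70 ± 0.23). That call was lost in 8 of the 10 leave-one-out fits (adjusted p up to 0.165).

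**Figure D3:**
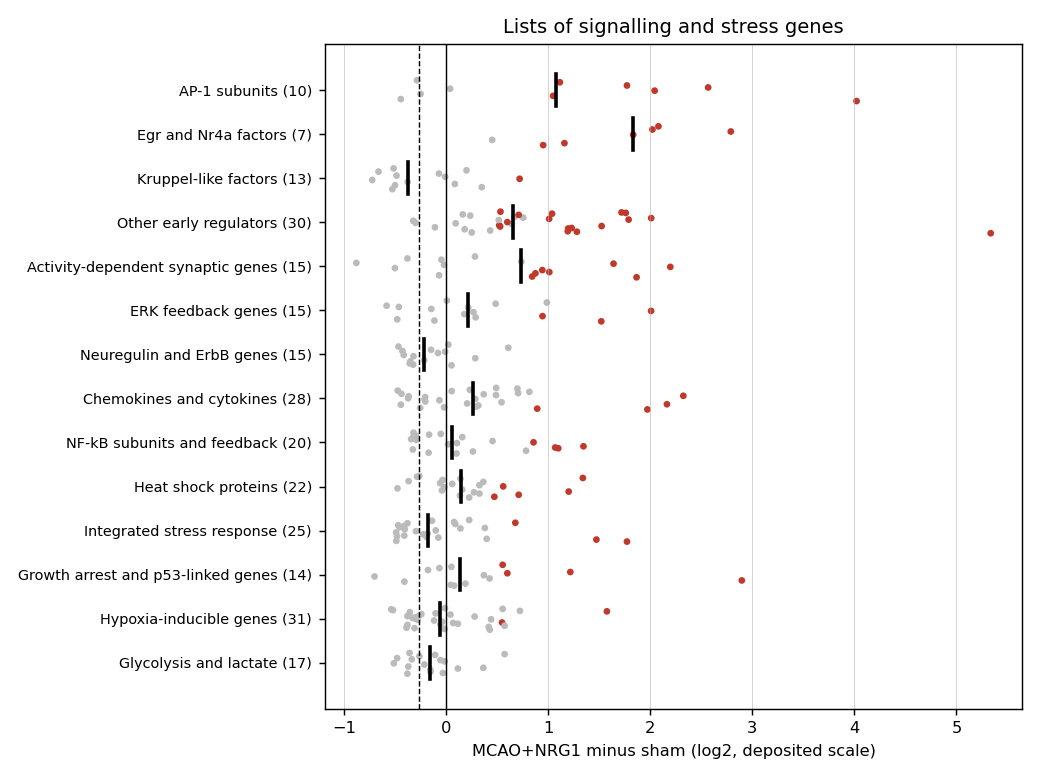
Difference between MCAO+NRG1 and sham (log2, deposited scale) of each measured member of 14 lists of signalling and stress genes, with the number measured in parentheses; coloured points were called higher on both scales, black bars are list medians, and the dashed line is 0 on the median-centred scale. The AP-1, Egr and Nr4a, early regulator and activity-dependent lists have medians of 0.66 to 1.83 log2, and the neuregulin and ErbB list −0.21.

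A few chemokine genes that were near or below background in sham rose in MCAO+NRG1, 4 of the 28 measured chemokine and cytokine genes being called. Ccl3, which draws monocytes and neutrophils, read 7.02, 7.42 and 6.46 in MCAO+NRG1 against 4.08, 4.56, 5.16 and 4.77 in sham (2.32 ± 0.33, adjusted p = 0.00126), and its relative Ccl4 5.84, 6.69 and 5.73 against 3.73, 3.91, 3.96 and 4.10 (2.16 ± 0.23, adjusted p = 0.000173). Ccl2, the main monocyte attractant, read 6.38, 7.44 and 5.79 against 4.09, 4.65, 4.88 and 4.62 (1.97 ± 0.48, adjusted p = 0.0161). All 3 separated the groups. Ccl2 varied most among MCAO+NRG1 arrays, and its call was lost without any 1 of them, any 1 of sham arrays 2 to 4 or MCAO array 1 (adjusted p up to 0.101). The fourth was Il1a (0.89 ± 0.23), none fell, and the median over the list was 0.26 log2. Without any 1 of MCAO+NRG1 arrays 1 to 3 or sham arrays 2 to 4 the count was 2, and without sham array 1 it was 5. The call of Il1a was lost without any 1 of the MCAO+NRG1 arrays or of sham arrays 2 to 4 (adjusted p up to 0.103).

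Ptgs2, the inducible cyclooxygenase, was already well above background in sham cortex and rose further. It read 11.37, 11.40 and 11.13 in MCAO+NRG1 against 8.52, 8.32, 9.35 and 8.35 in sham (2.66 ± 0.24, adjusted p = 3.75e-05). Olr1, a scavenger receptor for oxidised LDL, read 6.33, 7.01 and 6.55 in MCAO+NRG1 and lay below background in sham, at 3.64, 3.81, 3.77 and 3.86 (2.86 ± 0.35, adjusted p = 0.000502). For both genes the groups did not overlap, which the choice of the largest rises required. The promoter window of Olr1 held an AP-1 site 30 to 24 and a CRE half-site 37 to 33 bases before the start. NF-kB genes that rose were the subunit gene Rel (1.10 ± 0.16), the inhibitor gene Nfkbid (1.35 ± 0.18), the ubiquitin ligase gene Peli1 (1.07 ± 0.17) and the cytokine signalling suppressor gene Socs2 (0.86 ± 0.21), 4 of 20 measured. Socs2 lost its call without MCAO+NRG1 array 1 or 2 or sham array 4 (adjusted p up to 0.0647). None of the 21 microglia and macrophage markers was called on both scales. On the deposited scale 2 were lower, where 15.8% of all probe sets were, and 9 had an unadjusted p under 0.05. Their median difference was −0.43 log2 on that scale and −0.16 after centring. Their summed level on the deposited scale, the log2 of the sum of linear values, was 11.36 to 11.62 in MCAO+NRG1 and 11.69 to 11.996 in sham. Of 15 neutrophil markers 10 had means below background in both groups, among them Mpo, Elane and S100a8.

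Chaperone and stress genes rose in smaller numbers. Gadd45g, a stress-induced growth arrest gene, read 9.15, 9.62 and 7.85 in MCAO+NRG1 against 6.04, 5.91, 6.11 and 5.83 in sham (2.90 ± 0.35, adjusted p = 0.00042), and Gadd45b, of the same family, 8.51, 8.58 and 8.06 against 7.01, 7.02, 7.38 and 7.25 (1.22 ± 0.24, adjusted p = 0.00718). Ppp1r15a, which restores translation after stress, read 7.39, 8.07 and 7.24 against 6.17, 6.05, 5.92 and 6.24 (1.47 ± 0.19, adjusted p = 0.00065). The groups were separate for all 3, and Gadd45b lost its call without MCAO+NRG1 array 1 (adjusted p = 0.061). Of 22 heat shock protein genes 5 rose, all of them DnaJ co-chaperones, led by Dnajb4 (1.34 ± 0.19 for one probe set, 0.48 for the other, which was not called on the deposited scale) and Dnajb1 (1.20 ± 0.26). Their count was 1 without MCAO+NRG1 array 1 or 3 or sham array 2, 3 without MCAO+NRG1 array 2 or sham array 3, and 2 without sham array 4. Hspa1a, Hspa1b and Hsp90aa1 were not among the 22 genes measured, so no change of theirs can be read here. Of 14 growth arrest and p53-linked genes 4 rose, with 1 left without MCAO+NRG1 array 1 and 2 without MCAO+NRG1 array 3 or sham array 2 or 4. Of 25 genes of the integrated stress response 3 rose. The matricellular gene Ccn1, induced by stretch and growth factors, read 8.04, 8.76 and 6.67 against 5.03, 5.21, 4.99 and 5.21 (2.71 ± 0.42, adjusted p = 0.00198), the widest spread among MCAO+NRG1 arrays of the rises described here.

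Genes of hypoxia and of energy supply were mostly not called 3 hours after surgery. Of 31 measured hypoxia-inducible genes 2 rose, the calcium-regulating hormone gene Stc1 (6.52, 7.33 and 7.43 in MCAO+NRG1 against 5.58, 5.42, 5.50 and 5.57 in sham, 1.58 ± 0.24, adjusted p = 0.002) and the oxygen sensor gene Egln3 (0.55 ± 0.16). Egln3 lost its call without any 1 of the MCAO+NRG1 arrays or of sham arrays 2 to 4 (adjusted p up to 0.109). The list's count was 1 without MCAO+NRG1 array 1 or 3 or sham array 2, 3 or 4, and 4 without sham array 1 or MCAO array 3. Of 17 glycolysis and lactate genes none was called on either scale (3 at an unadjusted p under 0.05), with a median of −0.15 log2. No call on both scales was made among 45 respiratory chain and ATP synthase genes (7 at an unadjusted p under 0.05) or 34 ribosomal protein genes (9). Over all 18511 probe sets, 719 were higher and 5946 lower at that unadjusted limma threshold. Sterol synthesis had 1 rise in 20 genes, Idi1, which read 9.02, 7.94 and 8.11 against 7.84, 6.73, 6.80 and 6.85 (1.30 ± 0.28, adjusted p = 0.011), with sham array 1 near the lower MCAO+NRG1 arrays. Its call was lost without MCAO+NRG1 array 1 or sham array 2 or 4 (adjusted p up to 0.0753).

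Some genes of the blood vessel wall fell. Cldn5, the tight junction protein of the blood-brain barrier, read 5.94, 6.17 and 7.25 in MCAO+NRG1 against 7.87, 8.06, 7.90 and 8.06 in sham. The sham arrays were nearly equal and all above MCAO+NRG1, and Cldn5 fell by 1.52 log2 (SE 0.26, adjusted p = 0.00338). Sox17, a transcription factor of arterial endothelium, read 4.72, 4.97 and 5.17 against 5.96, 6.13, 6.03 and 5.95 (−1.06 ± 0.15, adjusted p = 0.0013), and Acvrl1, an endothelial BMP receptor, 5.61, 5.31 and 5.70 against 6.63, 6.57, 6.63 and 6.83 (−1.12 ± 0.20, adjusted p = 0.00421). Neither overlapped. Mmrn2 (−1.23 ± 0.18), Sox18 (−1.21 ± 0.21) and Ramp2 (−0.98 ± 0.16) made up the 6 of 31 measured endothelial genes that fell, and none rose. All 6 lost their call without MCAO+NRG1 array 1, and Cldn5 also without MCAO+NRG1 array 2 or any 1 of sham arrays 2 to 4 (adjusted p up to 0.0995). The list median was −0.71 log2, and 20 members were lower on the deposited scale, where 15.8% of all probe sets were. On both scales the count was 11 without sham array 1, none without MCAO+NRG1 array 1, 1 without sham array 2 and 2 without sham array 4, and 4 without sham array 3.

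The defining endothelial genes Cdh5 and Vwf were lower on the deposited scale only. Cdh5, the cadherin of endothelial junctions, read 6.002, 6.63 and 7.01 in MCAO+NRG1 against 7.65, 7.43, 7.43 and 7.36 in sham (−0.92 ± 0.24, adjusted p = 0.0191, and 0.148 after median centring). Vwf, the clotting factor stored in endothelium, read 5.08, 5.88 and 6.57 against 6.77, 7.26, 7.10 and 7.13 (−1.22 ± 0.25, adjusted p = 0.00901, and 0.054 after centring). The summed level of the endothelial list was 11.996 to 12.52 in MCAO+NRG1 and 12.71 to 12.93 in sham. Among 9 genes of caveolae, the membrane pits that brain endothelium keeps few of, Ehd2 alone fell. It read 5.75, 4.96 and 5.45 against 7.03, 7.30, 7.21 and 7.10, without overlap (−1.77 ± 0.19, adjusted p = 0.000185). Of 15 pericyte and smooth muscle genes Vtn (6.60, 6.80 and 7.42 against 8.01, 8.49, 8.31 and 8.48, −1.38 ± 0.23, adjusted p = 0.00307) and Anpep (−1.19 ± 0.22) fell. That count was 0 without MCAO+NRG1 array 1 or sham array 2, 3 or 4, and 4 without sham array 1 or MCAO array 3. The pericyte receptor gene Pdgfrb was at −0.80 ± 0.23 (adjusted p = 0.0293, and 0.149 after centring).

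Genes of the fibroblasts that sheathe vessels and form the meninges held the most called members of the cell type lists, 9 of 27, all lower (median −0.76 log2). Slc13a4, a sulphate transporter of the meninges, read 6.70, 6.62 and 7.67 in MCAO+NRG1 against 8.03, 8.90, 8.49 and 8.35 in sham (−1.45 ± 0.25, adjusted p = 0.00352). Fmod, a small matrix proteoglycan, read 5.84, 5.48 and 6.68 against 7.51, 7.58, 7.22 and 7.02 (−1.34 ± 0.25, adjusted p = 0.00539), and Igf2, the growth factor made by meninges and choroid plexus, 7.17, 7.27 and 7.67 against 8.32, 8.60, 8.39 and 8.33 (−1.04 ± 0.16, adjusted p = 0.00198). In each the MCAO+NRG1 array nearest to sham was array 3, and no array crossed over. The organic anion transporter gene Slc22a8 (−1.32 ± 0.24), the transcription factor gene Tbx18 (−1.31 ± 0.19), Prelp (−1.24 ± 0.24), Slc6a13 (−1.09 ± 0.21), Serpinf1 (−1.07 ± 0.18) and Bmp7 (−1.03 ± 0.19) completed the 9. The proteoglycan gene Dcn, abundant in these cells, was at −0.35 ± 0.20 and not called. The count on both scales was 13 without sham array 1 and 1 without MCAO+NRG1 array 1 or sham array 2 or 3, 2 without sham array 4 and 4 without MCAO+NRG1 array 2.

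Both chains of type I collagen fell. Col1a2 read 5.71, 5.73 and 6.88 in MCAO+NRG1 against 7.45, 8.73, 8.32 and 8.07 in sham, which lay apart (−2.03 ± 0.29, 4.10-fold lower, adjusted p = 0.00138), and Col1a1, the other chain of type I collagen, 5.91, 5.86 and 6.33 against 7.08, 7.81, 7.69 and 7.41 (−1.47 ± 0.19, adjusted p = 0.00055). These were the only 2 of 30 collagen genes called on both scales (8 without sham array 1, 3 without MCAO array 3, and 1 without MCAO+NRG1 array 1, where Col1a2 was lost at an adjusted p of 0.0554), and the elastin gene Eln fell by 1.41 log2 (SE 0.21). The plexus that makes cerebrospinal fluid lies close to the dissected tissue, and its markers differed most among sham animals. Ttr, its most abundant transcript, read 5.46, 4.58 and 4.61 in MCAO+NRG1 against 5.83, 11.24, 5.57 and 8.62 in sham, and Kl 4.05, 4.62 and 4.28 against 4.99, 7.85, 5.16 and 5.56. Sham array 2, and for Ttr array 4 as well, stood far above the other sham arrays. The summed level of the 23 choroid plexus genes was 11.14 to 11.25 in MCAO+NRG1 and 11.24 to 12.52 in sham. None was called on both scales, with a median of −0.63 log2, but without sham array 1 there were 9 falls and 1 rise. On the deposited scale 10 were lower, where 15.8% of all probe sets were, and 15 had an unadjusted p under 0.05. The part of choroid plexus or meningeal tissue carried with the cortex in the vascular and meningeal falls was not tested. Without sham array 2 the counts of falls on both scales were 1 for the endothelial, 0 for the mural and 1 for the meningeal list. In the same order they were 4, 0 and 1 without sham array 3, and 2, 0 and 2 without sham array 4. Leaving out MCAO+NRG1 array 1, 2 or 3 gave 0, 0 and 1, 5, 2 and 4, or 5, 2 and 7. Leaving out sham array 1 gave 11, 4 and 13. Counts were also lower without other single arrays, so they cannot decide what sham array 2 contributed. Both type I collagen genes were still called without sham array 2.

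**Figure D4:**
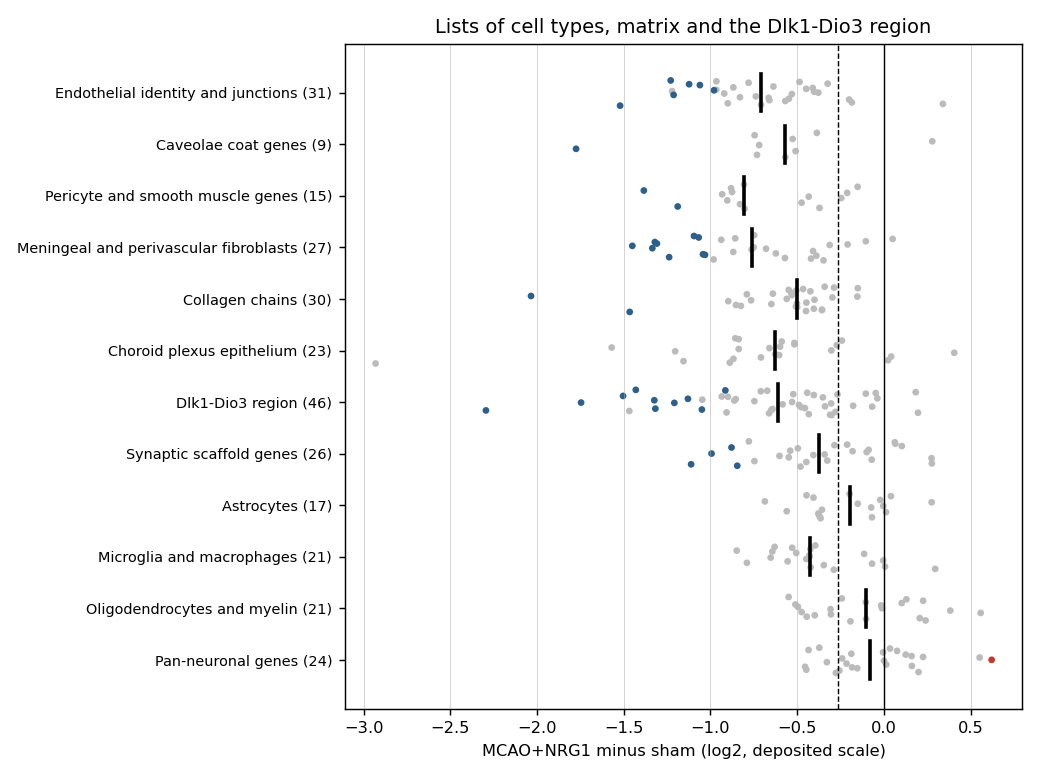
Difference between MCAO+NRG1 and sham (log2, deposited scale) of each measured member of 12 lists of cell types, matrix, synapse and the Dlk1-Dio3 region, with the number measured in parentheses; blue points were called lower and red points higher on both scales, black bars are list medians, and the dashed line is 0 on the median-centred scale. Endothelial, mural and meningeal medians lie at −0.71 to −0.81, while the neuronal and oligodendrocyte medians lie at −0.08 and −0.10, above the −0.24 of all probe sets.

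Markers of the other resident cells were mostly not called. No call on both scales was made among 17 astrocyte genes (median −0.20 log2, 6 at an unadjusted p under 0.05) or 21 oligodendrocyte genes (median −0.10, 6 likewise). Of 24 pan-neuronal genes 1 rose, the RNA-binding protein gene Elavl4 (0.62 ± 0.21, adjusted p = 0.0493), a call lost in 6 of the 10 leave-one-out fits. The summed level of these neuronal genes was 15.50 to 15.58 in MCAO+NRG1 and 15.60 to 15.70 in sham. Genes of the striatum, which lies beneath the cortex, had 17 measured members, of which 16 were above background. None of them was called on both scales (6 at an unadjusted p under 0.05), with summed levels of 12.05 to 12.78 in MCAO+NRG1 and 12.46 to 12.73 in sham.

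Some large genes of the synapse fell, while most receptors and channels were not called on both scales. Dlgap3, a scaffold under the postsynaptic density, read 8.58, 8.65 and 8.47 in MCAO+NRG1 against 9.50, 9.72, 9.81 and 9.68 in sham, without overlap (−1.11 ± 0.17, adjusted p = 0.00198). Nlgn2, the adhesion molecule of inhibitory synapses (−0.88 ± 0.15), Bsn, a scaffold of the presynaptic active zone (−0.85 ± 0.15), and Rims4 (−0.99 ± 0.23) fell too, 4 of 26 measured scaffold genes with none higher (median −0.37). Rims4 lost its call without any 1 of the MCAO+NRG1 arrays, any 1 of sham arrays 2 to 4 or MCAO array 2 (adjusted p up to 0.143), while Dlgap3 kept its call throughout. The count was 6 without sham array 1, 1 without MCAO+NRG1 array 1 or 3 or sham array 2, 3 or 4, and 2 without MCAO+NRG1 array 2. The presynaptic glutamate receptor gene Grm2 fell as well (7.68, 7.63 and 7.89 in MCAO+NRG1 against 8.33, 8.70, 8.79 and 8.71 in sham, −0.90 ± 0.18, adjusted p = 0.00744), a call that was lost without any 1 of the MCAO+NRG1 arrays or of sham arrays 2 to 4. Of 14 ionotropic glutamate receptor genes and 31 sodium and calcium channel genes none was called on both scales. On the deposited scale 3 and 11 were lower, where 15.8% of all probe sets were. Among 43 voltage-gated potassium channel genes Kcne4 (1.14 ± 0.19, adjusted p = 0.00307) and Kcnv1 (0.59 ± 0.15, adjusted p = 0.0168) rose, and Kcnv1 was lost without MCAO+NRG1 array 1 or sham array 2 (adjusted p up to 0.0777).

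Signals of the TGF-beta and growth factor families went both ways. Of 27 measured TGF-beta and activin genes Inhba and Bmp3 (0.76 ± 0.16) rose, and Id1, the BMP target and differentiation inhibitor, Acvrl1 and Ltbp4 (−0.81 ± 0.16) fell. Id1 read 6.12, 5.56 and 6.07 in MCAO+NRG1 against 6.73, 7.40, 7.32 and 7.28 in sham (−1.27 ± 0.19, adjusted p = 0.00196). Its groups did not overlap, with sham array 1 the lowest of the sham arrays. The count of falls was 0 without sham array 2 or 4, and 1 without any 1 of the MCAO+NRG1 arrays or sham array 3. Irs2, the adaptor of the insulin and IGF receptors, read 9.22, 9.50 and 9.37 against 8.51, 8.44, 8.96 and 8.21 (0.83 ± 0.19, adjusted p = 0.0132). The extracellular protease gene Adamts1 read 6.53, 7.49 and 7.14 against 5.37, 5.81, 5.86 and 5.68 (1.37 ± 0.24, adjusted p = 0.00382). Both rose without overlap between groups, but Irs2 lost its call without MCAO+NRG1 array 1 or 3 or sham array 2 or 4.

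Of 363 measured microRNA genes 17 were lower (4.68%, against 1.56% of all probe sets) and 2 higher on both scales. Only 86 of the 363 were above background. The largest fall called on both scales was Mir329, which read 2.98, 3.22 and 2.59 in MCAO+NRG1 and 5.33, 5.61, 5.31 and 4.64 in sham (−2.29 ± 0.23, adjusted p = 9.63e-05). Every MCAO+NRG1 array was below background, so the size is not exact. Mir543 read 4.01, 3.80 and 4.12 against 5.70, 5.56, 5.76 and 5.87 (−1.75 ± 0.24, adjusted p = 0.000939), and Mir382 4.25, 4.05 and 4.55 against 6.22, 5.38, 5.86 and 5.41 (−1.43 ± 0.21, adjusted p = 0.00138). For both genes the sham arrays were above background and the MCAO+NRG1 arrays below it. Mir329 kept its call whichever array was left out, Mir382 lost it without MCAO+NRG1 array 1, and Mir543 without MCAO+NRG1 array 1 or 3 or sham array 4 (adjusted p up to 0.061).

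Mir329, Mir543 and Mir382 belong to the Dlk1-Dio3 region, an imprinted stretch that is transcribed from the maternal chromosome as long RNAs carrying one of the largest microRNA clusters of mammals and that is active in neurons. Of 46 measured genes of the region 10 fell and none rose, all 10 of them microRNA genes (median of the list −0.61 log2). They span chr6:134306510-134579828 on the plus strand (GRCr8). Mir134, which restrains dendritic spine growth in rat neurons, read 4.58, 5.16 and 5.09 in MCAO+NRG1 against 5.78, 6.41, 6.05 and 6.38 in sham (−1.21 ± 0.20, adjusted p = 0.00315). Mir540, the brightest of them, read 6.43, 5.85 and 5.83 against 7.06, 7.37, 7.57 and 7.41 (−1.32 ± 0.20, adjusted p = 0.00198). Mir380 (−1.504 ± 0.23), Mir673 (−1.32 ± 0.17), Mir539 (−1.13 ± 0.20), Mir410 (−1.05 ± 0.22) and Mir668 (−0.91 ± 0.18) were the others. Only 13 of the 46 were above background, and 25 were lower on the deposited scale, where 15.8% of all probe sets were. The count on both scales was 12 without sham array 1 and 3, 4, 5 and 6 without MCAO+NRG1 array 1, MCAO+NRG1 array 3, sham array 2 and sham array 4. The long RNA Meg3 was at −0.85 ± 0.20 (adjusted p = 0.0139, and 0.109 after centring).

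Outside the region, Mir23b read 5.42, 5.66 and 5.34 in MCAO+NRG1 against 6.49, 6.54, 6.86 and 6.65 in sham (−1.16 ± 0.17, adjusted p = 0.00174), and its neighbour Mir27b 3.54, 3.70 and 4.63 against 5.60, 5.07, 4.81 and 5.35 (−1.25 ± 0.25, adjusted p = 0.00814). The groups were separate for both, narrowly for Mir27b. Mir125a (−1.10 ± 0.20), Mir425 (−1.10 ± 0.23), Mir346 (−1.09 ± 0.17), Mir2964 (−0.92 ± 0.17) and Mir122 (−0.88 ± 0.17) fell too. None of these 7 kept its call throughout. Mir23b lost it without MCAO+NRG1 array 1 or 3, Mir27b without MCAO+NRG1 array 1 or 2 or sham array 2 or 4, and the other 5 in 5 to 7 of the 10 leave-one-out fits (adjusted p up to 0.143). Mir133b (0.97 ± 0.27) and Mir466d (0.89 ± 0.23) rose. Both rises were lost without any 1 of the MCAO+NRG1 arrays or sham array 2 or 4 (adjusted p up to 0.0986).

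Other genes with large falls were spread over several functions. Degs2, a sphingolipid desaturase and hydroxylase gene, read 4.22, 4.01 and 4.59 in MCAO+NRG1 against 6.14, 6.37, 6.27 and 6.47 in sham (−2.04 ± 0.27, adjusted p = 0.00072). Slc25a39, a mitochondrial carrier gene, read 5.89, 5.02 and 5.57 against 6.91, 7.02, 6.85 and 6.97 (−1.45 ± 0.27, adjusted p = 0.0055), and Hes6, a neurogenic transcription factor gene, 5.65, 5.37 and 5.19 against 6.61, 6.87, 6.93 and 6.87 (−1.42 ± 0.18, adjusted p = 0.000521). In all 3 the sham arrays were close together. They also lay above every MCAO+NRG1 array, which the choice of the largest falls required. Fgf8 (−1.46 ± 0.20), the homeobox gene Lhx5 (−1.45 ± 0.19) and the glutathione transferase gene Gstm6 (−1.40 ± 0.17) were below background in MCAO+NRG1. All 15 of the largest rises and 8 of the 15 largest falls kept their call whichever of the 10 arrays was left out. Of the other falls, Col1a2, Fgf8 and Mir382 lost it without MCAO+NRG1 array 1, Mir543 and Slc25a39 in 3 of the 10 fits, and Cldn5 and Slc13a4 in 5 (adjusted p up to 0.114).

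The comparison with sham does not separate NRG1 from occlusion, and the direct test against vehicle-treated MCAO called 1 probe set (0.0054% of those tested), the olfactory receptor gene Or8h7b. It read 7.73, 7.95 and 8.02 in MCAO+NRG1 against 10.09, 9.55 and 10.19 in MCAO (−2.05 ± 0.23, adjusted p = 0.00295), and 8.68, 7.76, 8.41 and 8.59 in sham. MCAO+NRG1 and sham overlapped for this gene (−0.46 ± 0.22, adjusted p = 0.137). No other of the 18511 probe sets was called between the occluded groups, and 594 had an unadjusted p under 0.05. Leaving out MCAO array 1 or 3 removed this call as well. The differences from sham below share the sham arrays and are given side by side only.

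Dusp6 read 8.23, 7.87 and 7.90 in MCAO, between the other groups, which put it 0.91 log2 over sham in MCAO and 2.01 in MCAO+NRG1. The difference between MCAO+NRG1 and MCAO was 1.10 ± 0.19 and was not called (adjusted p = 0.134). Dusp1 read 10.31, 10.46 and 9.43 in MCAO, 0.27 log2 over sham, against 1.52 in MCAO+NRG1, and the direct difference was 1.25 ± 0.31 (adjusted p = 0.999). Arc was 1.15 ± 0.30 and Junb 1.16 ± 0.34 above MCAO, both with an adjusted p of 0.999. Npas4 read 11.70, 10.79 and 9.76 in MCAO, 4.10 log2 over sham, with MCAO+NRG1 minus MCAO at 1.24 ± 0.41 (adjusted p = 0.999). Olr1 was at 7.13, 7.41 and 5.29 in MCAO, 2.84 log2 over sham and 0.02 ± 0.38 from MCAO+NRG1. Cldn5 read 7.61, 6.85 and 7.30 in MCAO, −0.72 log2 against sham, with MCAO+NRG1 minus MCAO at −0.80 ± 0.27. Mir122 read 3.57, 3.21 and 3.15 in MCAO+NRG1 and 4.17, 4.46 and 4.72 in MCAO, close to or below background, at a direct difference of −1.14 ± 0.18 (adjusted p = 0.115). These differences did not pass the threshold, which does not show that the occluded groups were alike. Over the 276 risen probe sets the median was 0.72 log2 for MCAO minus sham and 0.11 for MCAO+NRG1 minus MCAO, and over the 288 fallen −0.75 and −0.25. Median centring raised every difference between MCAO+NRG1 and MCAO by 0.106 log2. On that scale the medians for MCAO+NRG1 minus MCAO were 0.22 and −0.14, so which set differed more depended on the scale. The members had been chosen on the same MCAO+NRG1 arrays, so these medians are a description.

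**Figure D5:**
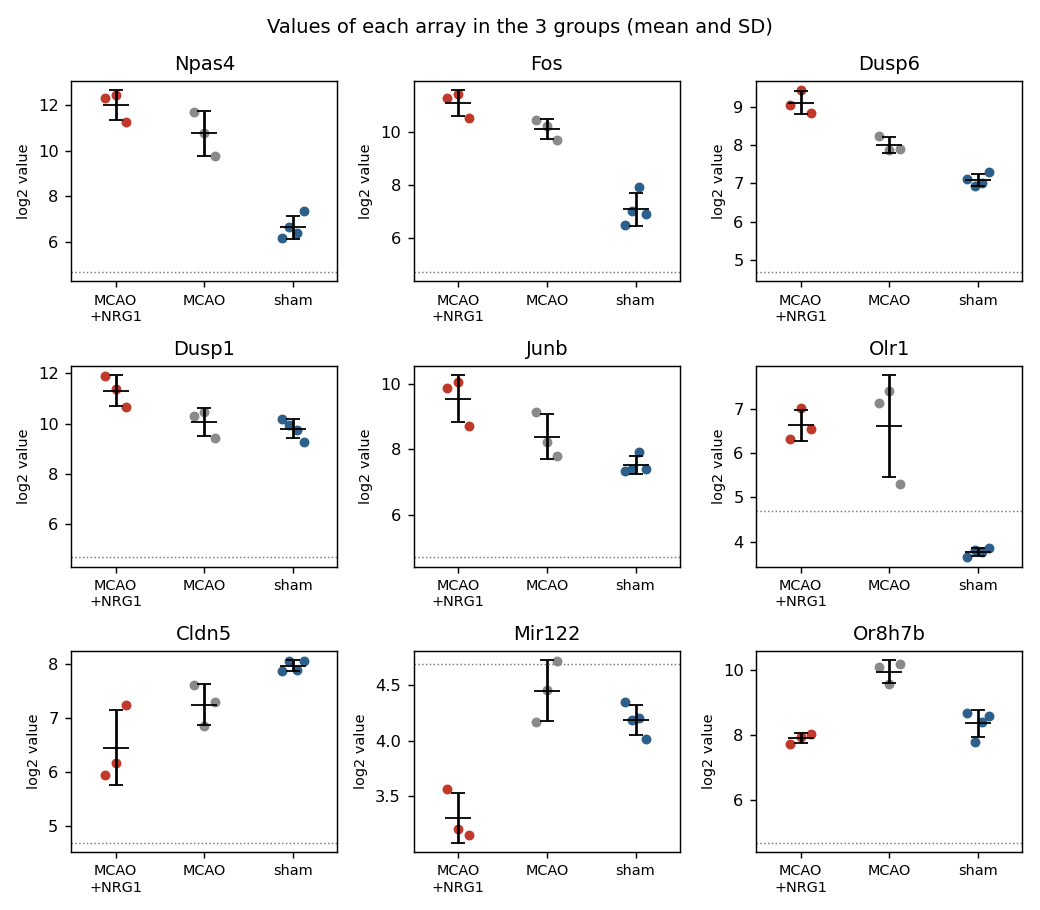
Value of each array (log2, deposited scale) in MCAO+NRG1, MCAO and sham for 9 genes, with the mean and SD of each group as a black bar and whiskers and the background level dotted. For Dusp6, Dusp1 and Junb the MCAO+NRG1 mean is the highest of the 3 groups, for Mir122 it is the lowest, and Or8h7b is high in MCAO alone.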

How the data were processed

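Total RNA of left cortex taken 3 hours after surgery was hybridised to whole-transcript rat gene arrays, 1 array per animal. The deposited log2 values were made by the authors with robust multi-array averaging (RMA) in the oligo package. Its version is not given in the sources used here, and the methods do not say whether all arrays were processed together. They are log2 intensities with no counts behind them, so the number of arrays limits the precision. From these values limma 3.58.1 in R 4.3.3 fitted 1 model to MCAO+NRG1 (3 arrays), MCAO (3) and sham (4), which share 1 estimate of spread. P-values were adjusted by the Benjamini-Hochberg method over the 18511 probe sets with 1 gene symbol, and the threshold was an adjusted p of 0.05. The other probe sets, 575 with several symbols and 17599 with none, were not tested in the main setting. All tests are two-sided. The same model was fitted to values centred on each array's median over these probe sets.

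The groups and replicate numbers came from the sample titles. Symbols were matched to RefSeq genes (GRCr8) for 18504 of the 18511 probe sets, and all promoter and microRNA sequences came from tables of that build. The genes named are the 15 largest rises and falls called on both scales with no overlap between arrays, up to 5 members of each of 52 gene lists by the smallest p, every list member called on both scales, microRNA genes called on both scales, and defining markers of cell types. Members and lists were chosen with earlier results of these data known. The defining markers, the ligand and receptor genes and the genes of the closing observations were chosen after their values were seen. Summed levels are the log2 of the sum of linear values over a list, on the deposited scale. That scale puts every difference between MCAO+NRG1 and sham 0.27 log2 lower than the median-centred scale does. Alternatives were other normalizations, filters, models, the replicate number as a block and leaving out each array. Leave-one-out counts of list members and of single-gene calls on both scales were added after the data were seen. The model script was tested on simulated data. Differences between occluded groups and sham use the same sham arrays.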

Additional observations from a re-analysis of the deposited data

Results flagged for a closer look

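In 13 of 262 named genes (4.96%) 1 sham array lay far from the other 3 by Dixon's test, which chance alone does in about 1 of 20 groups. The groups of 3 arrays were not tested this way. Sham array 3 was high for the early genes Egr2 (7.08 log2, against 5.89, 5.93 and 5.85 in the other sham arrays), Junb (7.92, against 7.33, 7.39 and 7.38) and Nr4a3 (7.65, against 7.06, 7.13 and 7.05), and for Srebf1 (7.73), and it was low for Bmp3 (5.77). Sham array 1 was high for Gabpa (7.06, against 6.04, 6.06 and 6.17), Idi1 (7.84, against 6.73, 6.80 and 6.85) and Zic2 (8.59), and low for Pfkl (8.41), Ltbp4 (7.01) and Foxp4 (7.26). Sham array 2 was low for Etv4 (5.71) and sham array 4 for Amotl2 (6.59).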

How the results depend on the processing

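The counts of called genes depended on the setting. On the deposited scale 279 probe sets were higher and 2920 lower in MCAO+NRG1 than in sham. Median centring gave 707 and 288, median centring over all probe sets of the array 1337 and 198, quantile normalization 553 and 488, and testing all probe sets of the array 185 higher. On both scales, 276 and 288, testing all probe sets gave 138 and 76, and quantile normalization as the other scale gave 488 lower. Leaving out 1 array at a time gave 116 to 779 higher and 772 to 4582 lower on the deposited scale, 95 to 779 higher and 47 to 1168 lower on both scales, and 0 to 1 calls between MCAO+NRG1 and MCAO. That single call was also 0 when all probe sets were tested.

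Same-numbered MCAO+NRG1 and sham arrays correlated at 0.17, 0.08 and −0.19 in their deviations from the group means, so the replicate numbers were not taken to pair animals. With the replicate number as a block, the counts were 169 higher and 1263 lower on the deposited scale and 136 higher and 49 lower on both scales.

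Of the 149 named genes called on both scales, none changed direction under any alternative. Of their deposited-scale calls, quantile normalization lost 4, median centring over all probe sets 8, the block 18 and testing all probe sets 26. Whichever of the 10 arrays was left out, 113 of the 149 kept their deposited-scale call and 58 their call on both scales. Genes that changed sign were uncalled in both settings. Under median centring these were Cx3cr1 (0.20), Mbp (0.073) and Erbb3 (0.12). Under median centring over all probe sets they were Rplp0 (0.0178), Dcn (0.0175), Slc17a7 (0.0369), Cx3cr1 (0.30), Gfap (0.00074), Mbp (0.17), Erbb2 (0.0103) and Erbb3 (0.22). Under quantile normalization Cx3cr1 was at 0.060, and with 1 array left out at a time Nrg1 lay between −0.00476, without MCAO+NRG1 replicate 3, and 0.0846. The cause of these shifts was not tested.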

Other observations

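Single genes outside the lists also changed on both scales, and the following were chosen after their values were seen, so they stand for no group. Clk1, a kinase of splicing factors, read 8.52, 8.42 and 8.36 log2 in MCAO+NRG1 against 7.62, 6.70, 6.33 and 7.09 in sham (1.496 ± 0.29, limma adjusted p = 0.00668). The related kinase gene Clk4 (1.20 ± 0.26), the cyclin gene Ccnl1 (1.22 ± 0.21), Magoh (0.91 ± 0.28), Srsf7 (0.69 ± 0.18) and Hnrnpll (0.61 ± 0.18) rose too. The calls of Clk1 and Clk4 were lost without MCAO+NRG1 array 1 or 3 or sham array 2 (adjusted p up to 0.0686). Those of Magoh, Srsf7 and Hnrnpll were lost without MCAO+NRG1 array 1 or 3 or any 1 of sham arrays 2 to 4, and that of Hnrnpll also without MCAO+NRG1 array 2.

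Tlr13, a sensor of bacterial RNA, read 5.49, 5.37 and 5.71 in MCAO+NRG1 against 4.44, 4.14, 3.85 and 3.98 in sham (1.42 ± 0.18, adjusted p = 0.00065), and the checkpoint receptor gene Havcr2 5.94, 5.42 and 5.52 against 4.76, 3.77, 4.40 and 4.38 (1.30 ± 0.21, adjusted p = 0.00297). Both kept their call whichever array was left out. Csf2rb (1.22 ± 0.34), C3ar1 (0.91 ± 0.22), Cd274 (0.89 ± 0.27) and Cd86 (0.72 ± 0.19) rose by less, and each lost its call when sham array 2 was left out, and when 1 or more of the MCAO+NRG1 arrays were (adjusted p up to 0.123). The serotonin receptor gene Htr1b read 8.53, 9.26 and 8.77 against 7.85, 7.58, 8.02 and 7.43 (1.13 ± 0.23, adjusted p = 0.00775), a call lost without MCAO+NRG1 array 3 or sham array 2.

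The transcription factor gene Foxp4 read 6.17, 6.65 and 6.35 in MCAO+NRG1 against 7.26, 7.53, 7.53 and 7.58 in sham (−1.09 ± 0.19, adjusted p = 0.00397), and the WNT coreceptor gene Lrp5 5.75, 5.97 and 6.07 against 7.04, 6.99, 6.92 and 6.96 (−1.04 ± 0.17, adjusted p = 0.0026). Zic2 (−1.24 ± 0.24) and Sfrp1 (−1.07 ± 0.19) fell too, as did the stromal genes Mfap4 (−1.31 ± 0.20), Cd248 (−1.003 ± 0.19) and Pcolce (−1.002 ± 0.20). Lrp5 and Mfap4 kept their call on both scales whichever array was left out, Foxp4 lost it in 4 of the 10 fits, Zic2, Sfrp1 and Cd248 in 5 and Pcolce in 8 (adjusted p up to 0.16).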
